A study of Mus musculus with 8 samples.

Results

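The genes described here are 7 markers of the formative and primed states of pluripotency: Fgf5, Otx2, Pou3f1, Sall2, Zic2, Sox4 and Foxd3. They were taken by gene symbol from a table of 52338 genes with values, and all 7 were found in it. Transcript levels come from RNA sequencing of mESCs, mouse embryonic stem cells, a pluripotent cell type grown from the inner cell mass of the early embryo. There were 8 libraries in 4 groups of 2: cells treated with sh-linc1393 (sh), with sd-linc1393 (sd) or with dd-linc1393 (dd), and untreated wild-type cells (control). The study asks how linc1393, which is a long non-coding transcript, bears on pluripotency. What sd and dd mean is not explained in the labels, which also give no strain, culture medium or time. Of the 7 genes, 6 had a mean of at least 1 FPKM over the 8 libraries and entered the test across genes, while Fgf5 fell below that filter. FPKM stands for fragments per kilobase of exon, scaled to a library total, so levels can be set side by side between genes.

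In mouse embryos, cells of the epiblast leave the naive state around implantation and pass through a formative state before they reach a primed state in which they respond to signals for the germ layers. Cultured mESCs follow the same path when the signals that hold them naive are withdrawn: OTX2 and POU3F1 rise early and redirect enhancer use, FGF signalling through ERK drives the step, and Fgf5 marks the epiblast after implantation. FOXD3, ZIC2, SALL2 and SOX4 are transcription factors with roles in this transition or in the neural and crest lineages that follow it, and several of them are also present at a low level in naive cells.

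To show the start regions of these genes, the 250 bases before the annotated start were read from the RefSeq promoter table (GRCm38.p6). Windows of 5 of the 7 genes were matched, and those of Fgf5, Otx2, Sox4 and Foxd3 are printed. They were chosen because the levels of Otx2, Sox4 and Foxd3 separated the replicate numbers, and because Fgf5 is the ligand. Fgf5 was at or under a floor of 3 reads in sh replicate 1, dd replicate 2 and control replicate 2. Capitals mark every match, on either strand, to 8 motifs: the TATA box TATAAA, the CCAAT box, the GC box written GGGCGG, the cyclic AMP response element TGACGTCA, the E-box CACGTG, the site of OTX proteins TAATCC, the octamer of POU proteins ATGCAAAT and the core site of SOX proteins CTTTGT. No match of one motif overlapped a match of another in these 4 windows.
Fgf5, chr5:98253934-98254183, plus strand: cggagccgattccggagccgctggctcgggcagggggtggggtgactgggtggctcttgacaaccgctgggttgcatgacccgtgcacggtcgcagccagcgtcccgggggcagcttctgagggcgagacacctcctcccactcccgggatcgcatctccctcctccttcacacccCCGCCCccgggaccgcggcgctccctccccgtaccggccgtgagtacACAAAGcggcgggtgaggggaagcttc
Otx2, first of 4 annotated starts, chr14:48667645-48667894, minus strand: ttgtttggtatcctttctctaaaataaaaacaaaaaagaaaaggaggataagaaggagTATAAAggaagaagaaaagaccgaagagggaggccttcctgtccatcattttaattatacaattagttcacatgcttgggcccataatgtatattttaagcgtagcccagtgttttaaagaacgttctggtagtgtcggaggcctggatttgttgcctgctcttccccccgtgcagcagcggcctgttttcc
Sox4, chr13:28953700-28953949, minus strand: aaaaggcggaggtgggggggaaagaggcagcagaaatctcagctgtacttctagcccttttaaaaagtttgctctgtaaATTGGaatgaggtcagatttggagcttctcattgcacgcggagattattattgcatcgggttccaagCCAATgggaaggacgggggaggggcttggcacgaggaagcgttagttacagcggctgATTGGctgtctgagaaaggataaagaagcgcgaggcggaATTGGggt
Foxd3, chr4:99656049-99656298, plus strand: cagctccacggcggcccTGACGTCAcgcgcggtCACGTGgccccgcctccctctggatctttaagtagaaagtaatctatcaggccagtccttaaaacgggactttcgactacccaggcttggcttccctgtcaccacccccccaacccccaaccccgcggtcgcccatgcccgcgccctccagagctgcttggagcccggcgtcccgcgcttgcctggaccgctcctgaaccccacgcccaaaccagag

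The Fgf5 and Foxd3 windows were rich in G and C, at 70.8% and 65.6%, with 24 and 21 CpG dinucleotides, against a median of 52.4% and 6 CpG over 32851 windows of the same length. The printed Otx2 window had 42%, and the other 3 Otx2 windows 48.4% to 53.6%. Sox4 held 4 CCAAT matches, a motif present in 11120 of the 32851 windows. Foxd3 held the cyclic AMP element and the E-box, found in 1.55% and 6.02% of windows. Fgf5 held the GC box and the SOX core, found in 32.7% and 16.5% of windows, and Otx2 held the TATA box, found in 12.4%. The OTX site, found in 6.25% of windows, and the POU octamer, found in 1.60%, had no match in the printed windows, while the third Otx2 window, not printed, held 1 OTX site. These matches describe the letters only, and no binding was measured.

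The libraries differed in depth and split by replicate number before any split by group. Depth, the reads assigned to genes as worked out from the size of 1 read in FPKM, was 13738600 to 20387053 reads in the 6 treated libraries and 3658367 to 6415131 in the 2 control libraries. Actb, which encodes beta-actin, ranged over 55.3 to 76.6 FPKM among the 4 libraries numbered 2 and over 9006 to 15913 FPKM among the 4 numbered 1. Olfactory receptor genes, normally active in the nose, were above 0 for 50.8% to 97.8% of 1093 genes in replicate 2 and for 5.22% to 8.23% in replicate 1. Markers of other lineages (neuroectoderm, mesoderm, trophoblast, fibroblast and neural crest, 41 genes in all) had medians of 0.635 FPKM in sh replicate 2, 0.514 in sd replicate 2, 0.0982 in dd replicate 2 and 1.60 in control replicate 2, and a median of 0 in all 4 replicate 1 libraries. In replicate 1, 15 of the 41 were at 0 in all 4 libraries, among them Pax3, Hes5, Olig2, Mesp1, Tbx6, Cdx2, Dcn and Pax7. Others were present in each replicate 1 library. Among these were Fbln1 at 7.89 to 19.3 FPKM, Tfap2c at 5.25 to 10.7, Tubb3 at 2.09 to 6.10, Eomes at 1.75 to 3.15, Ngfr at 1.57 to 2.70 and Sox1, a neuroectoderm marker, at 1.03 to 2.43. Nanog, a marker of pluripotent cells, lay between 215 and 335 FPKM in all 8 libraries. Other markers of these cells were less even, so Nanog does not stand for them. Sall4 ran from 13.9 FPKM in control replicate 2 to 53.0 in sd replicate 1, and Zfp42 from 132 to 372 FPKM in the same libraries. Not all markers of these cells are printed, and some varied far more widely across the libraries than Sall4 and Zfp42. No gene identifier could be linked to linc1393, whose level was therefore not analysed here, and the effect of the reagents on it is unknown. Because the controls received no reagent, linc1393 and the giving of a reagent cannot be told apart as sources of a difference from control. Separate cultures for the 2 libraries of a group are not stated in the labels, and the p-values then reflect the spread between libraries alone, which may be technical. In bulk RNA, fewer cells of a type and less RNA per cell cannot be told apart.

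All 7 genes were low, under 10 FPKM in each library except for Foxd3 in sh replicate 1, and the sign of the difference from control turned with the replicate number for 3 or 4 of the 6 tested genes in each treatment, as it did for 44% to 48.7% of all tested genes. Pou3f1 was the only one of the 6 whose treated libraries all lay below both control libraries, as did those of 0.728% of all tested genes. It passed the filter only through its controls. The libraries of Otx2, Sox4 and Foxd3 separated by replicate number, as did those of 41.9% of all tested genes in the direction of Otx2 and 14.2% in that of Sox4 and Foxd3. No difference between groups passed the test across genes.

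**Figure D1:**
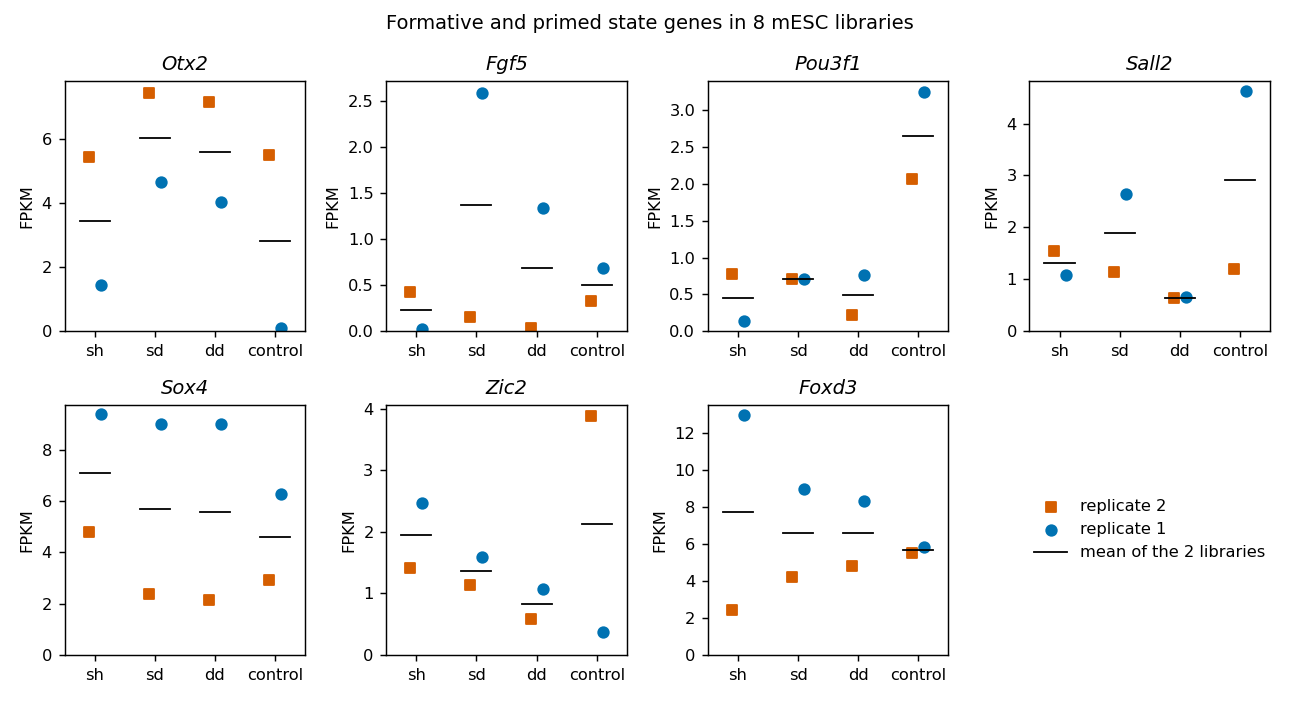
FPKM of each of the 7 genes (vertical axes, linear and starting at 0, one scale per panel) in the sh, sd, dd and control libraries, with replicate 2 as orange squares, replicate 1 as blue circles and the mean of each group as a bar. Pou3f1 lay at 0.132 to 0.781 FPKM in the 6 treated libraries and at 2.06 and 3.24 FPKM in the control libraries, while Otx2, Sox4 and Foxd3 separated by symbol.

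The secreted ligand of the set is Fgf5 (ENSMUSG00000029337, chromosome 5, 98254184 to 98277030, plus strand, GRCm38), a fibroblast growth factor and a marker of the epiblast after implantation. Its level was 0.0291 and 0.429 FPKM in sh replicates 1 and 2, 2.59 and 0.156 in sd, 1.34 and 0.0392 in dd, and 0.686 and 0.328 in control. These values rested on 1 and 15 reads in sh, 132 and 6 in sd, 64 and 2 in dd, and 11 and 3 in control. The 3 libraries sh replicate 1, dd replicate 2 and control replicate 2 were thus at or under the floor of 3 reads, which for Fgf5 is 0.0873, 0.0588 and 0.328 FPKM. The 4 groups overlapped, and the highest values, in sd and dd replicate 1, stood beside low values in the replicate 2 libraries of the same groups. Within replicate 1 the ratio of FPKM to control was 0.0424 in sh (exact 95% interval 0.000986 to 0.292), 3.78 in sd (2.05 to 7.76) and 1.95 in dd (1.02 to 4.10), intervals that cover counting error only. Within replicate 2 it was 1.31 in sh (0.370 to 7.05), 0.476 in sd (0.102 to 2.94) and 0.120 in dd (0.00999 to 1.04), all 3 intervals reaching across 1. The ratios of all 3 treatments thus fell on opposite sides of 1 in the replicate numbers, but so few reads do not settle the direction in replicate 2. When the filter on low values was dropped, the log2 difference from control was -0.30 in sh, 0.45 in sd and 0.06 in dd (SE 0.78), each with a limma adjusted p of 1.

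Of the homeodomain factors, Otx2 (ENSMUSG00000021848, chromosome 14, 48657677 to 48673819, minus strand) encodes the factor that drives cells out of the naive state. It had 1.45 and 5.44 FPKM in sh replicates 1 and 2, 4.65 and 7.45 in sd, 4.04 and 7.16 in dd, and 0.111 and 5.50 in control. Control replicate 1 held 3 Otx2 reads, at the floor, against 84 in sh, 399 in sd and 327 in dd of the same number. The group means were 3.45 ± 2.82 FPKM in sh, 6.05 ± 1.98 in sd, 5.60 ± 2.20 in dd and 2.81 ± 3.81 in control (SD, n = 2 each), and every group overlapped every other. Within replicate 1 the ratio to control was 13.1 in sh (exact 95% interval 4.32 to 64.7), 41.9 in sd (14.2 to 204) and 36.5 in dd (12.4 to 178). Within replicate 2 it was 0.989 in sh (0.776 to 1.27), 1.35 in sd (1.07 to 1.72) and 1.30 in dd (1.04 to 1.65). The large ratios rest on 1 control library with 3 reads, while replicate 2, with 85 reads in its control, gave ratios of at most 1.35. The limma log2 difference from control was 0.56 in sh, 1.36 in sd and 1.25 in dd (SE 0.95 each; adjusted p = 1 each). Without control replicate 1 it was -0.71 in sh, 0.09 in sd and -0.02 in dd, and without control replicate 2 it was 1.84, 2.64 and 2.53 in the same order. The antisense Otx2os1 and the locus Gm49154 overlap Otx2 and had at most 0.624 and 0.277 FPKM in any library.

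Pou3f1 (ENSMUSG00000090125, chromosome 4, 124656807 to 124660655, plus strand) encodes a POU factor, also called OCT6, that acts with OTX2 in the formative state and later in neural progenitors. Its level was 0.132 and 0.781 FPKM in sh replicates 1 and 2, 0.702 and 0.710 in sd, 0.759 and 0.217 in dd, and 3.24 and 2.06 in control. Read counts were 7 and 42 in sh, 55 and 42 in sd, 56 and 17 in dd, and 80 and 29 in the shallower controls. All 6 treated libraries lay below both control libraries, a pattern shared by 0.728% of the 14561 genes tested, and the 3 treated groups overlapped one another. Within replicate 1 the ratio to control was 0.0409 in sh (exact 95% interval 0.0159 to 0.0881), 0.217 in sd (0.151 to 0.309) and 0.234 in dd (0.164 to 0.334). Within replicate 2 it was 0.379 in sh (0.231 to 0.631), 0.345 in sd (0.210 to 0.574) and 0.105 in dd (0.0542 to 0.198). Each of the 6 intervals lay below 1, for counting error alone. The limma log2 difference from control was -1.34 in sh, -1.078 in sd and -1.30 in dd (SE 0.57 each), with unadjusted p of 0.054, 0.105 and 0.060 and an adjusted p of 1 each. Pou3f1 therefore had the same direction in all 3 comparisons, which share their control libraries, and passed the test in none.

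In the replicate 2 libraries the order of Pou3f1 was also that of the 41 markers of other lineages. Pou3f1 was highest in control and lowest in dd, and so was the marker median, at 0.635 FPKM in sh, 0.514 in sd, 0.0982 in dd and 1.60 in control. Of the 41 markers, 24 lay below Pou3f1 in sh, 26 in sd, 26 in dd and 29 in control of replicate 2, and the summed marker level was 74.9, 63.9, 35.8 and 91.6 FPKM in the same order of groups. The part of these markers in the replicate 2 difference was not tested. The markers above 0 numbered 41 in sh, 41 in sd, 39 in dd and 40 in control of replicate 2. In replicate 1 they numbered 20, 19, 18 and 16, the median was 0 FPKM in each library and the sums were 46.1 in sh, 36.5 in sd, 34.5 in dd and 34.6 in control, while Pou3f1 was at 0.132, 0.702, 0.759 and 3.24 FPKM. Of the short exon sequences of Pou3f1, 8.17% occur in another gene, and the antisense Gm2164, which shares the most, was listed at 0 in every library except control replicate 2, at 0.645 FPKM.

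**Figure D2:**
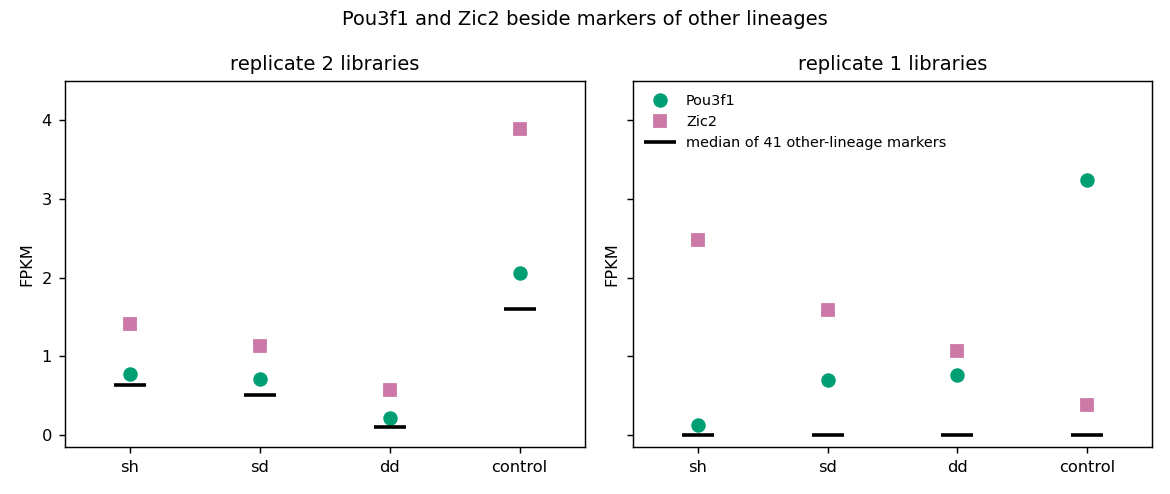
FPKM (vertical axis, linear) of Pou3f1 and Zic2 and the median of 41 other-lineage markers (black bar) in the sh, sd, dd and control libraries, replicate 2 on the left and replicate 1 on the right. In replicate 2 both genes and the marker median were highest in control and lowest in dd. In replicate 1 the marker median was 0 throughout, Pou3f1 was highest in control at 3.24 FPKM, and Zic2 was lowest there at 0.379 FPKM.

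Sall2 and Zic2 encode the zinc finger factors of the set. Sall2 (ENSMUSG00000049532, chromosome 14, 52311172 to 52328762, minus strand), a relative of the core factor gene Sall4, had 1.09 and 1.54 FPKM in sh replicates 1 and 2, 2.64 and 1.14 in sd, 0.653 and 0.641 in dd, and 4.62 and 1.21 in control. Both dd libraries lay below the other 6. The share of all genes with that pattern was not counted, while 4.72% of tested genes had both dd libraries below both controls. The sh, sd and control groups overlapped. The read counts behind the dd values were 68 and 71, against 161 and 24 in control. The ratio of dd to control was 0.141 within replicate 1 (exact 95% interval 0.105 to 0.189) and 0.531 within replicate 2 (0.330 to 0.882). For sh it was 0.235 (0.178 to 0.309) within replicate 1 and 1.28 (0.817 to 2.07) within replicate 2, so the sh direction was not shared by the numbers. In sd the ratio was 0.572 (0.470 to 0.698) within replicate 1 and 0.942 (0.597 to 1.54) within replicate 2. The limma log2 difference was -0.61 in sh, -0.34 in sd and -1.10 in dd (SE 0.65 each; adjusted p = 1 each). Without control replicate 1 it was 0.06 in sh, 0.34 in sd and -0.42 in dd. None of the short exon sequences of Sall2 occurred in another gene.

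Zic2 (ENSMUSG00000061524, chromosome 14, 122475435 to 122479852, plus strand), which encodes a factor that binds enhancers in pluripotent cells and patterns the forebrain later, went opposite ways in the replicate numbers. It had 2.48 and 1.42 FPKM in sh replicates 1 and 2, 1.59 and 1.13 in sd, 1.07 and 0.579 in dd, and 0.379 and 3.89 in control. Control thus held both the lowest and the highest of the 8 values, with 7 reads in replicate 1 and 41 in replicate 2. Within replicate 1 the ratio to control was 6.54 in sh (exact 95% interval 3.06 to 16.7), 4.19 in sd (1.95 to 10.7) and 2.82 in dd (1.29 to 7.32). Within replicate 2 it was 0.364 in sh (0.239 to 0.558), 0.290 in sd (0.188 to 0.450) and 0.149 in dd (0.0916 to 0.240). All 3 treatments were above control in replicate 1 and below it in replicate 2, and in both numbers sh had the highest treated value and dd the lowest. Among treated groups the dd libraries lay below both sd libraries and both sh libraries, with a log2 difference of -0.68 from sh and -0.38 from sd (SE 0.72 each; limma adjusted p = 1 each). The nearest dd and sd values were 1.07 and 1.13 FPKM, and the share of all genes with this separation was not counted. Over all tested genes the median log2 difference of dd was -0.09 from sh and -0.09 from sd. Against control the pooled log2 difference was 0.16 in sh, -0.15 in sd and -0.52 in dd (SE 0.72 each; limma adjusted p = 1 each). The marker median of replicate 2 had the same order of groups as Zic2 in that number, and its part in the result was not tested.

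Sox4 (ENSMUSG00000076431, chromosome 13, 28948919 to 28953713, minus strand), an SRY-box factor active in many progenitor cells, had 9.40 and 4.79 FPKM in sh replicates 1 and 2, 8.99 and 2.36 in sd, 9.02 and 2.16 in dd, and 6.27 and 2.91 in control. In replicate 1 the 3 treated libraries lay close together and above control, at ratios of 1.498 in sh (exact 95% interval 1.27 to 1.77), 1.43 in sd (1.22 to 1.68) and 1.44 in dd (1.23 to 1.69). In replicate 2 only sh was above control, at 1.65 (1.22 to 2.26), while sd was at 0.812 (0.591 to 1.13) and dd at 0.742 (0.545 to 1.03). The limma log2 difference from control was 0.54 in sh, 0.12 in sd and 0.08 in dd (SE 0.85 each; adjusted p = 1 each). That SE includes the spread between replicate numbers, and it was 0.38 with the number as a block. Of the short exon sequences of Sox4, 54.7% occur in another gene, and the lincRNA Gm26735 on the other strand shares the most. Because use of strand is not given in the sources used here, the Sox4 values are uncertain to that extent.

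Foxd3 (ENSMUSG00000067261, chromosome 4, 99656299 to 99658622, plus strand) encodes a forkhead factor needed for epiblast cells and later for the neural crest. It reached the highest level of the set, 13.0 FPKM in sh replicate 1, against 2.43 in sh replicate 2. The other libraries held 8.99 and 4.20 FPKM in sd, 8.33 and 4.83 in dd, and 5.84 and 5.53 in control. The controls were close to each other and lay inside the range of every treated group. Within replicate 1 the ratio to control was 2.23 in sh (exact 95% interval 1.76 to 2.84), 1.54 in sd (1.22 to 1.96) and 1.43 in dd (1.13 to 1.82). Within replicate 2 it was 0.440 in sh (0.303 to 0.646), 0.760 in sd (0.544 to 1.078) and 0.874 in dd (0.636 to 1.22). Foxd3 was thus above control in replicate 1 and below it in replicate 2 in all 3 treatments, with pooled log2 differences of 0.05 in sh, 0.11 in sd and 0.14 in dd (SE 0.79 each; limma adjusted p = 1 each). A miRNA gene, Gm23366, lies within Foxd3, and 5.54% of the short exon sequences of Foxd3 occur in another gene.

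None of the 6 genes tested was called in sh, sd or dd against control by limma at an adjusted p of 0.05, and 0% of all 14561 genes were called in each of the 3 comparisons. The unadjusted p was under 0.05 for 32 genes in sh, 50 in sd and 83 in dd, and for none of the 6. Blocking on the replicate number raised those counts to 480, 945 and 1310, again with no gene called. Among them in the blocked limma fit were Pou3f1 in sh and dd (unadjusted p = 0.0268 and 0.0308) and Otx2 in sd and dd (unadjusted p = 0.0250 and 0.0353). The voom method on recovered reads also called 0 genes, with 6, 9 and 23 at an unadjusted p under 0.05 without the block. With the block, voom had 403, 821 and 1383 such genes and again called 0. Blocked adjusted p-values of the 6 genes were 0.999 in sh, 0.723 to 0.965 in sd and 0.553 to 0.949 in dd. The SEs given above for each of the 6 are from the unblocked fit, and so include the spread between replicate numbers. With the block the SE was 0.38 for Sox4, 0.47 for Foxd3, 0.51 for Otx2, Pou3f1 and Sall2, and 0.62 for Zic2, with the same log2 differences. Adding 1 FPKM before taking log2 makes the differences of genes as low as these smaller than their ratios. Between treated groups, 0 of the 6 genes and 0% of all genes were called in sd against sh, dd against sh and dd against sd, with 13, 14 and 8 genes at an unadjusted p under 0.05 and 0 called by voom.

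Since the tests called nothing, the agreement of the libraries in sign was counted, beside the share of all tested genes with the same pattern. In sh, 1 of the 6 genes, Pou3f1, had both libraries below both controls, against 2.13% of all genes. In sd this was again Pou3f1, against 2.69%, and in dd it was Pou3f1 and Sall2, against 4.72%. None of the 6 had both libraries above both controls, which 8.4% of all genes had in sh, 11.1% in sd and 11.2% in dd. Within replicate numbers, Pou3f1 was lower than the control of its own number in all 6 treated libraries, as were 3.66% of all genes. Sox4 was higher within both numbers in sh, as were 35.2% of genes. Otx2 was higher within both numbers in sd and in dd, as were 37.5% and 31% of genes. The signs of the numbers were opposite for 4 of the 6 genes in sh (Otx2, Sall2, Zic2 and Foxd3), against 47.1% of all genes. They were opposite for 3 of the 6 (Sox4, Zic2 and Foxd3) in sd, against 44%, and for the same 3 in dd, against 48.7%. These comparisons share the control libraries, so their patterns are not independent of one another. The shares set beside Pou3f1 come from a filter that it passed only through its controls, so they do not measure rarity among genes as low as Pou3f1.

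**Figure D3:**
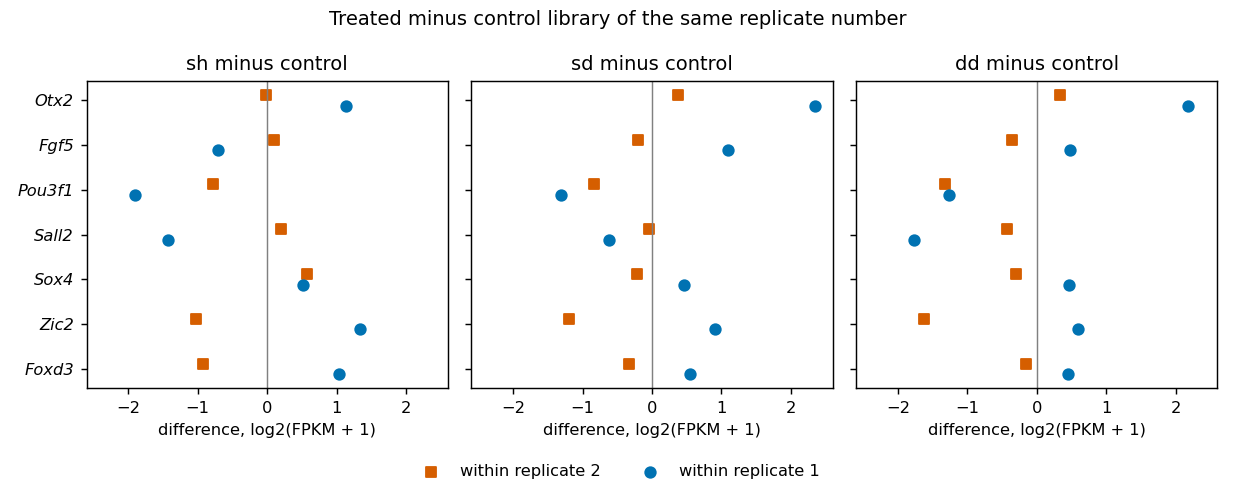
Difference of each treated library from the control library of the same replicate number, on the log2(FPKM + 1) scale (horizontal axis), for the 7 genes in sh, sd and dd, with replicate 2 as orange squares and replicate 1 as blue circles. Pou3f1 lay left of 0 for both numbers in all 3 panels, while Zic2 and Foxd3 lay right of 0 in replicate 1 and left of 0 in replicate 2.

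The replicate numbers themselves separated 3 of the 6 tested genes. Otx2 was higher in replicate 2, at 6.39 ± 1.06 FPKM against 2.56 ± 2.14 FPKM in replicate 1 (SD, n = 4 each). Sox4 was lower, at 3.05 ± 1.20 FPKM in replicate 2 and 8.42 ± 1.44 FPKM in replicate 1. Foxd3 was lower as well, at 4.25 ± 1.33 FPKM in replicate 2 and 9.04 ± 2.97 FPKM in replicate 1. For all 3 genes the 4 libraries of one number did not overlap the 4 of the other, a pattern that 41.9% of all tested genes had in the direction of Otx2 and 14.2% in the direction of Sox4 and Foxd3. By limma with group in the fit, the log2 difference of replicate 2 from replicate 1 was 1.31 for Otx2 (SE 0.36, adjusted p = 0.0117), -1.24 for Sox4 (SE 0.27, adjusted p = 0.00374) and -0.93 for Foxd3 (SE 0.34, adjusted p = 0.0370). The same test called 61.3% of all genes, 46.6% higher and 14.6% lower (6787 and 2133 genes, against 4015 and 4343 after quantile normalization and 4988 and 3623 after median ratio scaling), and the median of all genes was 0.73, or 0.02 after quantile normalization. The Sox4 call was kept in each alternative tried. The Otx2 call was lost after quantile normalization (0.65, adjusted p = 0.0728) and without sh replicate 1 or sh replicate 2 (1.28 each, adjusted p = 0.0529 and 0.0519) or control replicate 2 (0.89, adjusted p = 0.0511). The Foxd3 call was lost when any 1 treated library was left out, at -0.56 without either sh library, -0.92 without either sd library and -1.01 without either dd library (adjusted p = 0.0534 to 0.173).

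Sall2, Zic2 and Pou3f1 were not called between the replicate numbers. Their log2 differences were -0.46 for Sall2 (adjusted p = 0.289), 0.16 for Zic2 (adjusted p = 0.769) and -0.09 for Pou3f1 (adjusted p = 0.849) by limma. Quantile normalization gave -1.30 for Sall2 and -0.86 for Pou3f1 (adjusted p = 0.0137 and 0.0302), so these 2 genes were called lower in replicate 2 on that scale. Fgf5, which was not in the test, averaged 0.238 ± 0.174 FPKM in replicate 2 and 1.16 ± 1.09 FPKM in replicate 1 (SD, n = 4 each), and the libraries overlapped. Actb, the olfactory receptors and the other-lineage markers moved with the replicate number too, and their part in these differences was not tested.

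A rank within each library does not depend on the library total, and is the share of protein-coding genes with a lower FPKM. Pou3f1 lay above 41.9% of protein-coding genes in sh replicate 2, 43.8% in sd and 43.6% in dd, against 58.5% in control replicate 2. In replicate 1 its ranks were 48.9% in sh, 57.0% in sd and 58.6% in dd, against 76.4% in control. Pou3f1 was thus below its own control by rank in both numbers in all 3 treatments. The Sall2 ranks in replicate 2 were 55.4% in sh, 54.1% in sd and 53.8% in dd, all above the 41.9% of control, whereas in replicate 1 they were 63.5%, 70.5% and 57.2% in the same order, below the 80.4% of control. The dd direction of Sall2 therefore turned in replicate 2 when ranks replaced FPKM. A rank does depend on how many other genes hold low values, which differed between these 2 libraries. Olfactory receptor genes had a median of 0.271 FPKM in control replicate 2, with 86.3% above 0, and of 0.00876 FPKM in dd replicate 2, with 50.8% above 0. The part of this in the turn was not tested. Foxd3 and Sox4 ranked between 63.0% and 89.7% in all 8 libraries, and Fgf5 ranked between 10.4% and 24.6% in replicate 2 and between 43.8% and 70.4% in replicate 1.

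**Figure D4:**
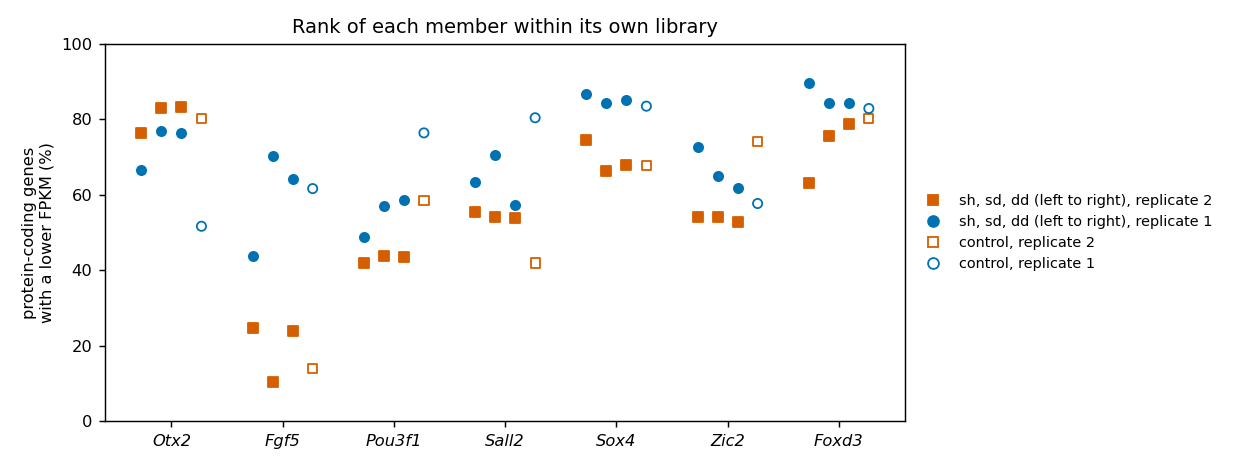
Share of protein-coding genes with a lower FPKM in the same library (vertical axis, percent), for the 7 genes. Filled symbols are sh, sd and dd from left to right, open symbols are control, squares are replicate 2 and circles are replicate 1. In all 3 treatments Pou3f1 ranked below the control of its own number, and Sall2 did so in replicate 1 but not in replicate 2.

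The other formative and primed genes, a list of 20 that does not hold the 7, were not called against control either, and 16 of them entered the test. In sh, 14 of the 16 had a positive log2 difference and the median was 0.16, against 0.15 for all genes tested. In sd, 10 were positive with a median of 0.11, against 0.17. In dd, 4 were positive with a median of -0.20, against 0.06 for all genes. The 6 tested members had medians of 0.11 in sh, -0.02 in sd and -0.22 in dd. Split by number, the members had medians of -0.40 in sh, -0.27 in sd and -0.37 in dd within replicate 2, and of 0.77, 0.50 and 0.46 in the same order within replicate 1. The other list had medians of 0.23, -0.04 and -0.36 within replicate 2 and of 0.10, 0.21 and 0.06 within replicate 1. Quantile normalization moved the median of all genes to 0.04 in sh and 0.04 in sd, and on that scale the members' medians were -0.19 in sh, -0.24 in sd and -0.24 in dd, so the sh sign turned. The other list then had medians of 0.10, 0.002 and -0.16, with 9, 8 and 5 of 16 positive, and median ratio scaling turned its sd median to -0.04.

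Among the most abundant genes of that list, Etv5, an ETS factor induced by FGF signalling, had 49.3 and 37.9 FPKM in sh replicates 1 and 2, 63.6 and 27.0 in sd, 64.8 and 14.9 in dd, and 51.1 and 22.7 in control. Nodal, a ligand that keeps epiblast cells pluripotent, had 39.6 and 46.6 FPKM in sh, 50.6 and 32.0 in sd, 32.7 and 27.9 in dd, and 34.5 and 35.1 in control. Both dd values of Nodal lay below both controls, as did those of 4.72% of all tested genes. Both sh values lay above both controls, as did those of 8.4%, while sd overlapped control (limma adjusted p = 1 each). Utf1, a chromatin factor of pluripotent cells, averaged 35.8 ± 6.06 FPKM in sh, 34.5 ± 2.23 in sd, 25.02 ± 17.9 in dd and 31.9 ± 8.70 in control (SD, n = 2 each).

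Of the naive pluripotency genes, all 16 of the list were tested and none was called. In sh, 15 of 16 had a positive log2 difference with a median of 0.26, in sd 15 with a median of 0.40, and in dd 14 with a median of 0.33. Those medians compare with 0.15, 0.17 and 0.06 over all genes, and after quantile normalization they were 0.15, 0.32 and 0.27 with 12, 14 and 14 positive. Within replicate 2 the naive medians were 0.42 in sh, 0.49 in sd and 0.36 in dd, against 0.20, 0.03 and -0.13 over all genes. Within replicate 1 they were 0.17, 0.49 and 0.30, against 0.10, 0.31 and 0.28 over all genes, so the sign was the same in both numbers and the dd value of replicate 1 lay near that of all genes. Zfp42 (Rex1), a marker of naive cells, had 298 and 220 FPKM in sh replicates 1 and 2, 372 and 261 in sd, 361 and 273 in dd, and 293 and 132 in control. Each treated library held more Zfp42 than the control of its number, as was so for 15% of all tested genes, and the log2 differences were 0.38, 0.66 and 0.67 (limma adjusted p = 1 each). Nanog averaged 238 ± 11.8 FPKM in sh, 302 ± 46.7 in sd, 280 ± 7.83 in dd and 229 ± 19.7 in control (SD, n = 2 each).

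**Figure D5:**
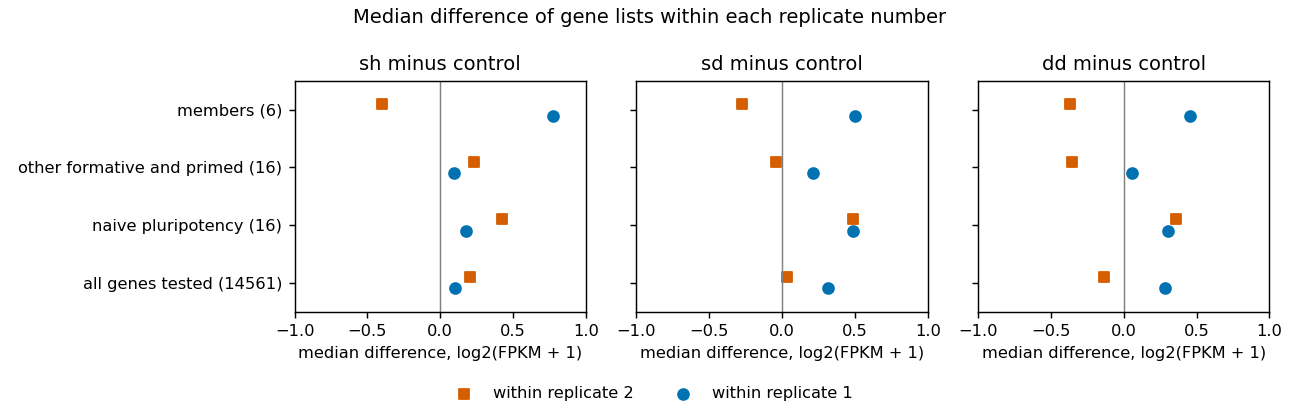
Median difference from the control library of the same replicate number, on the log2(FPKM + 1) scale (horizontal axis), over the tested members, the other formative and primed genes, the naive pluripotency genes and all 14561 genes tested, with replicate 2 as orange squares and replicate 1 as blue circles. The members lay at 0.46 to 0.77 in replicate 1 and at -0.40 to -0.27 in replicate 2, while the naive genes lay right of 0 in both numbers.

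FGF and ERK genes, the pathway to which Fgf5 belongs as a ligand, had 10 of 11 genes in the test and none called against control. Positive differences were found for 7 of the 10 in sh, 4 in sd and 3 in dd, with medians of 0.16, -0.16 and -0.23. Within replicate 2 the medians were 0.04 in sh, -0.18 in sd and -0.64 in dd, and within replicate 1 they were 0.07, 0.14 and 0.19, so the sd and dd signs turned with the number. Fgf4, the ligand that mESCs themselves secrete, had 52.4 and 106 FPKM in sh replicates 1 and 2, 65.6 and 89.0 in sd, 58.6 and 117 in dd, and 45.8 and 94.8 in control, far above Fgf5 in each library. Dusp6, a phosphatase induced by ERK that turns it off, had 1.99 FPKM in sh replicate 2, 1.66 in sd, 0.595 in dd and 2.62 in control, and 120, 94.9, 89.0 and 137 FPKM in the same order in replicate 1. Dusp6 was below the control of its number in all 6 treated libraries, as were 3.66% of all genes, though the groups overlapped through the replicate split (log2 difference -0.23 in sh, -0.48 in sd and -0.90 in dd, limma adjusted p = 1 each). Spry2, a feedback inhibitor of receptor signalling, had 2.88 to 9.94 FPKM in replicate 2 and 1750 to 4517 FPKM in replicate 1.

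The closest relatives of the members were mostly low, and 8 of the 18 listed entered the test. Otx1, the relative of Otx2, was listed at 0 in all replicate 1 libraries and had 0.502 FPKM in sh, 0.756 in sd, 0.163 in dd and 1.11 in control of replicate 2. Pou2f1, the POU gene of the list with the highest level, had 1.78 and 1.41 FPKM in sh replicates 1 and 2, 3.15 and 1.03 in sd, 2.91 and 1.11 in dd, and 1.05 and 1.12 in control. Pou2f1 did not share the separation of treated from control libraries that Pou3f1 showed. Sox12, a relative of Sox4, had 3.81 and 3.83 FPKM in sh, 3.24 and 3.04 in sd, 2.10 and 0.969 in dd, and 2.98 and 3.499 in control. Both dd values of Sox12 were the lowest of the 8 (log2 difference -0.78, limma adjusted p = 1). The share of genes with that pattern was not counted, while 4.72% of all tested genes had both dd libraries below both controls. Foxd1, a relative of Foxd3, stayed below 1 FPKM in all libraries but control replicate 2, at 2.11 FPKM.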

How the data were processed

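Total RNA of 8 mESC libraries was sequenced after standard Illumina library preparation, as the labels' protocols state. The deposited table holds FPKM for each gene and library, per the file headers, and CASAVA 1.4, HISAT2 and the build mm10 are listed in the submitters' processing notes. Which program counted reads, and with which annotation, FPKM formula and use of strand, is not given in the sources used here. Of 58420 genes listed, 6082 had no value and 52338 did, of which 52081 matched GENCODE M21 (GRCm38) by identifier. That match gave symbols, positions and exon lengths. Deposited FPKM times exon length fell on whole multiples of 1 read, within 0.02, for 98.3% to 98.9% of values under 100 reads, which gave reads and totals per library. Counting error is all that the floor of 3 reads and the exact 95% intervals describe, since reads are not independent molecules. Depth thus ranged from 3658367 to 20387053 reads, and the shallow controls limit low genes most.

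Log2(FPKM + 1) values of 14561 genes with a mean of at least 1 FPKM were tested with limma 3.58.1 (R 4.3.3), all 4 groups of 2 fitted together with a mean-variance trend, two-sided, with Benjamini-Hochberg adjustment per comparison at 0.05. The replicate contrast had group in the fit. The fits were tested on simulated data, in which changes were set only in genes more abundant than any member. How well the fits find a change in genes as low as the members was therefore not tested. Same-numbered libraries deviated together from their group means (correlations 0.750 to 0.894 across genes over the 6 pairs of groups), so the numbers were taken to pair the samples, and a fit with the number as a block was an alternative. Other alternatives were pseudocounts, filters, quantile and median ratio scaling, robust moderation, only the groups compared, voom on recovered reads, and leaving out each library. The members and lists were chosen with earlier results of these data known. Besides the 7 members, genes were named by rank of mean FPKM: the top 4 of each list, the top relative of each member and the top marker of each lineage, of which those that bear on the members are printed. One gene that this rule names is not reported here. Actb and the olfactory receptor class were picked with their values known. Short exon sequences shared between genes were counted exactly, on either strand, in GENCODE M21 transcripts.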

Additional observations from a re-analysis of the deposited data

How the results depend on the processing

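None of the 6 tested genes was called against control, or between treated groups, under any alternative run. With the replicate number as a block, 0 genes were called in each of these comparisons, as without it, and the block changed no call of a member. Leaving out 1 library gave 0 to 102 calls over all genes in sh against control, 0 to 149 in sd, 0 to 167 in dd and 0 to 11 in dd against sh, the upper values with the block kept, without control replicate 1 for the first 3 and without dd replicate 1 for the last. Pou3f1 stayed below control throughout, at -3.09 to -0.85 log2 in sh, -2.00 to -0.82 in sd and -2.82 to -1.002 in dd, with the lowest adjusted p at 0.546, 0.558 and 0.337. Sall2 in dd, Otx2 in sd and Sox4 in sh also kept their sign. Other signs turned, and the cause was not tested. Quantile normalization gave -0.18 for Zic2 and -0.21 for Foxd3 in sh, -0.0025 for Sox4 and -0.053 for Foxd3 in sd, and -0.69 for Zic2 between replicate numbers. Median ratio scaling gave -0.030 for Foxd3 in sh, -0.065 for Sox4 and -0.069 for Foxd3 in sd, and -0.20 for Zic2 between numbers. Voom gave -0.045 for Foxd3 in sh, -0.058 for Sox4 and 0.30 for Zic2 in sd (0.12 with the block), -0.19 for Sox4 in dd and -0.015 for Zic2 between numbers. A pseudocount of 0.1 gave -0.0050 for Foxd3 in sh and 0.059 for Zic2 in sd. Over the fits that left out 1 library, sh differences ranged from -0.71 to 1.84 for Otx2, -1.29 to 0.060 for Sall2, -0.95 to 1.27 for Zic2 and -0.96 to 1.07 for Foxd3. In sd they ranged from -1.01 to 0.34 for Sall2, -0.67 to 0.91 for Sox4, -1.26 to 0.97 for Zic2 and -0.47 to 0.68 for Foxd3. In dd they ranged from -0.020 to 2.53 for Otx2, -0.76 to 0.91 for Sox4, -1.64 to 0.59 for Zic2 and -0.43 to 0.72 for Foxd3. Between replicate numbers they ranged from -0.33 to 0.063 for Pou3f1 and from -0.40 to 0.39 for Zic2. Unblocked fits of this kind set unequal numbers against each other. Between replicate numbers 5368 genes were called at a mean of at least 5 FPKM, where fewer genes were tested, against 8920 at a mean of at least 1, and 1 to 3 members were called there when 1 library was left out. Depth limits Fgf5, Zic2 and Otx2 most, since the controls held 3 to 11 reads of them in 1 or both libraries.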

Other observations

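For each tested gene the 2 protein-coding genes with the nearest pattern over the 8 libraries were named, out of 9934, by the mean absolute difference of log2(FPKM + 1) after centring within each replicate number. Dusp4, a phosphatase that turns off ERK, was nearest to Zic2 at 0.0511, followed by Gfod2 at 0.0871. Dusp4 had 2.74 and 0.601 FPKM in sh replicates 1 and 2, 1.72 and 0.475 in sd, 1.05 and 0.125 in dd, and 0.512 and 2.69 in control, so control was the highest library of replicate 2 and the lowest of replicate 1, as for Zic2. Fgf3, a fibroblast growth factor, was nearest to Pou3f1 at 0.160, with 0.0626 and 4.43 FPKM in sh, 0.0423 and 3.72 in sd, 0.0449 and 2.74 in dd, and 1.81 and 6.93 in control, and Plcd3 followed at 0.161. The nearest genes were Msrb2 (0.120) and Znhit3 (0.130) for Otx2, Plpp6 (0.102) and Eid1 (0.136) for Sall2, Hs1bp3 (0.0637) and Cdk11b (0.0768) for Sox4, and Fam25c (0.121) and Rhpn2 (0.126) for Foxd3. These are descriptions over 8 libraries that share their replicate split.

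Primitive endoderm markers, 7 genes that all entered the test, were above control for 4 genes in sh, for 0 in sd and for 1 in dd, with medians of 0.04, -0.30 and -0.56 log2 and none called. Within replicate 2 the medians were -0.19, -0.37 and -0.63, and within replicate 1 they were 0.11, -0.04 and 0.29, so the sh and dd signs turned with the number, and the sh median was -0.06 under median ratio scaling and -0.02 under quantile scaling. Dab2, the most abundant of them, had 10.5 and 0.819 FPKM in sh replicates 1 and 2, 7.25 and 0.337 in sd, 8.62 and 0.261 in dd, and 6.88 and 0.410 in control. Of the 10 fibroblast markers only Fbln1, an extracellular matrix gene, entered the test, while Col3a1, Postn, Dcn and Lum were at 0 in all replicate 1 libraries. Fbln1 had 19.3 and 19.6 FPKM in sh, 7.89 and 10.8 in sd, 9.06 and 6.49 in dd, and 15.2 and 12.6 in control. Both sh libraries lay above both controls, as did those of 8.4% of all tested genes. The sd and dd libraries lay below both controls, as did those of 2.69% and 4.72% of genes. The log2 differences were 0.47 in sh, -0.53 in sd and -0.77 in dd (limma adjusted p = 1 each). The summed level of the 41 markers of other lineages in replicate 2 was 74.9 FPKM in sh and 91.6 in control.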
